A study of Mus musculus with 20 samples.

Results

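The genes examined here are those of sugar entry, glycolysis, lactate handling, the pentose phosphate pathway and glycogen synthesis in mouse bone marrow-derived macrophages (BMDM). They were chosen by name from a list of 38 gene symbols, which was drawn up with earlier results of these data known. Of the 38, 37 were among the 14456 genes of the table. Fbp1, a gluconeogenic phosphatase, was not among the listed genes. The 20 libraries came from BMDM of wild-type C57BL/6 mice aged 8 weeks, whose marrow had been grown with macrophage colony-stimulating factor. In the first experiment the cells were kept for 24 h in 5.5 mM glucose with 19.5 mM mannitol as osmotic control (normal glucose, 4 libraries) or in 25 mM glucose without mannitol (high glucose, 4 libraries). In the second experiment naive BMDM received PBS, exosomes of BMDM cultured in normal glucose (BMDM-NG-exo) or exosomes of BMDM cultured in high glucose (BMDM-HG-exo), at 2000000000 particles per ml, again for 24 h and with 4 libraries each. The glucose concentration during these exposures is not given in the sources used here. The authors name DMEM as the BMDM medium and describe no added glucose or mannitol for the cells that received exosomes. The labels name no separate animals for the libraries, so that a p-value measures the spread between libraries, which may be technical in the glucose experiment. The exosome labels also carry 4 dates, and the authors state separate exosome preparations for these samples. In that experiment the spread takes in dates and preparations.

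Glucose enters macrophages through facilitative transporters of the Slc2a family and is trapped by hexokinases as glucose 6-phosphate. Phosphofructokinase commits the sugar to glycolysis, the lower steps return ATP and yield pyruvate, and lactate dehydrogenase with the monocarboxylate transporters disposes of it as lactate. The pentose phosphate pathway branches off at glucose 6-phosphate, makes NADPH in its oxidative arm and returns carbon to glycolysis through transketolase and transaldolase. Activated macrophages are known for a high flux through all of these routes.

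Promoters of 36 of the 37 genes were found among the RefSeq starts on GRCm38.p6, the build to which the reads were also mapped. The 250 bases before the start are shown for 3 genes that were higher in high glucose with a hypoxia-response core in this window (Pgk1, Pgam1 and Ldha), for Slc2a6, which was higher and has none, and for Hk3, which was lower and has one. Capitals mark ACGTG, the core of the hypoxia response element, on either strand, and CACGTG, the E-box, which reads the same on both strands and holds ACGTG.
Pgk1 (chrX:106186850-106187099, plus strand): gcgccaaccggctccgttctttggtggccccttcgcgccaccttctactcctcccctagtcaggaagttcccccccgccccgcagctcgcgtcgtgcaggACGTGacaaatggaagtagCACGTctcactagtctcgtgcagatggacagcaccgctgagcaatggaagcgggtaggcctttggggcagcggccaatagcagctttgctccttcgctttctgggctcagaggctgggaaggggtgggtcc
Pgam1 (chr19:41911621-41911870, plus strand): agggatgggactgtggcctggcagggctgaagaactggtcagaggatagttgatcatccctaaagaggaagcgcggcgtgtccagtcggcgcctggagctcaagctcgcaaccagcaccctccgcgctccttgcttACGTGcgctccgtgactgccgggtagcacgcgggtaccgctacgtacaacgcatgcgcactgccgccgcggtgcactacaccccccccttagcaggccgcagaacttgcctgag
Ldha (chr7:46845554-46845803, plus strand): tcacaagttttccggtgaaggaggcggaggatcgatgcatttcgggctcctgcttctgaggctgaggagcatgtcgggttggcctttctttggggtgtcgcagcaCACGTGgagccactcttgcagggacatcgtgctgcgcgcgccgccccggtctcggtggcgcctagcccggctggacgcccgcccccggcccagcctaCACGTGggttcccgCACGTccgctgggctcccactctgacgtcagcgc
Slc2a6 (chr2:27027999-27028248, minus strand): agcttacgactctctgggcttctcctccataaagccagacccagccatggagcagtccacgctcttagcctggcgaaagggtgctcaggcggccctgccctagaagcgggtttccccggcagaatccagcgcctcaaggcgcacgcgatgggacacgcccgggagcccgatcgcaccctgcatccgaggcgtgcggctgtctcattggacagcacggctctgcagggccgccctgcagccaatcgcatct
Hk3 (chr13:55021386-55021635, minus strand): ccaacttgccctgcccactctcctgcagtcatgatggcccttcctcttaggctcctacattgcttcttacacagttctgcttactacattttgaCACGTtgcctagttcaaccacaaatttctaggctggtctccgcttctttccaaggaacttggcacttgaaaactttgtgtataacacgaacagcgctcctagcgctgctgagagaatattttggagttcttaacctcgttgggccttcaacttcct
The letters ACGTG stood in 12 of 36 windows (33.3%), against 16.6% of all 32851 RefSeq windows of this length. Among the 18 members that rose in high glucose the count was 6, or 33.3%. CACGTG was held by 3 members (8.33%, all windows 6.02%), and TGACNNNGC, the core of the antioxidant response element, by 3 (8.33%, all windows 10.2%). GGGCGG, the GC box, was held by 24 members (66.7%, all windows 32.7%). All motifs were searched on both strands, and a match says only that these letters are in the window.

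Library totals ran from 34016445 to 56310712 reads, and each of the 37 genes had at least 105 reads in every library. All values below are normalized counts, that is reads divided by 1 size factor per library. The macrophage label was checked with 10 markers, all of which were listed, while T and B cell, erythroid, mast cell and dendritic cell markers were not among the listed genes. Of 10 neutrophil markers 5 were listed, with a summed level of 165 to 378 per library, and of 5 stromal markers 3, the collagen genes Col1a1, Col1a2 and Col3a1, with 107 to 349. The 37 genes together took 0.427 to 0.440% of the reads in normal glucose and 0.519 to 0.568% in high glucose, which did not overlap. The share had a median of 0.506% with PBS (highest 0.523%), 0.490 to 0.498% with BMDM-NG-exo and 0.506 to 0.525% with BMDM-HG-exo. In these cultures, fewer cells of a type and less RNA per cell cannot be told apart.

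Levels of different genes were compared per kb of exon, as means over all 20 libraries. Aldoa, the main aldolase, and Pkm, pyruvate kinase, led with 8777 and 8525 normalized counts per kb, followed by Taldo1, transaldolase, with 6337. The order of the first pair differed by group, with Aldoa at 7225 and Pkm at 6082 normalized counts per kb in normal glucose. In high glucose Aldoa had 9364 and Pkm 10274 normalized counts per kb. The leading transporter gene, Slc2a6, reached 609 normalized counts per kb and the leading hexokinase gene, Hk3, 1386. The lowest members were Slc16a1, a lactate carrier, with 40.2, Pfkfb2 with 50.6 and Slc2a3 with 61.2 normalized counts per kb.

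**Figure D1:**
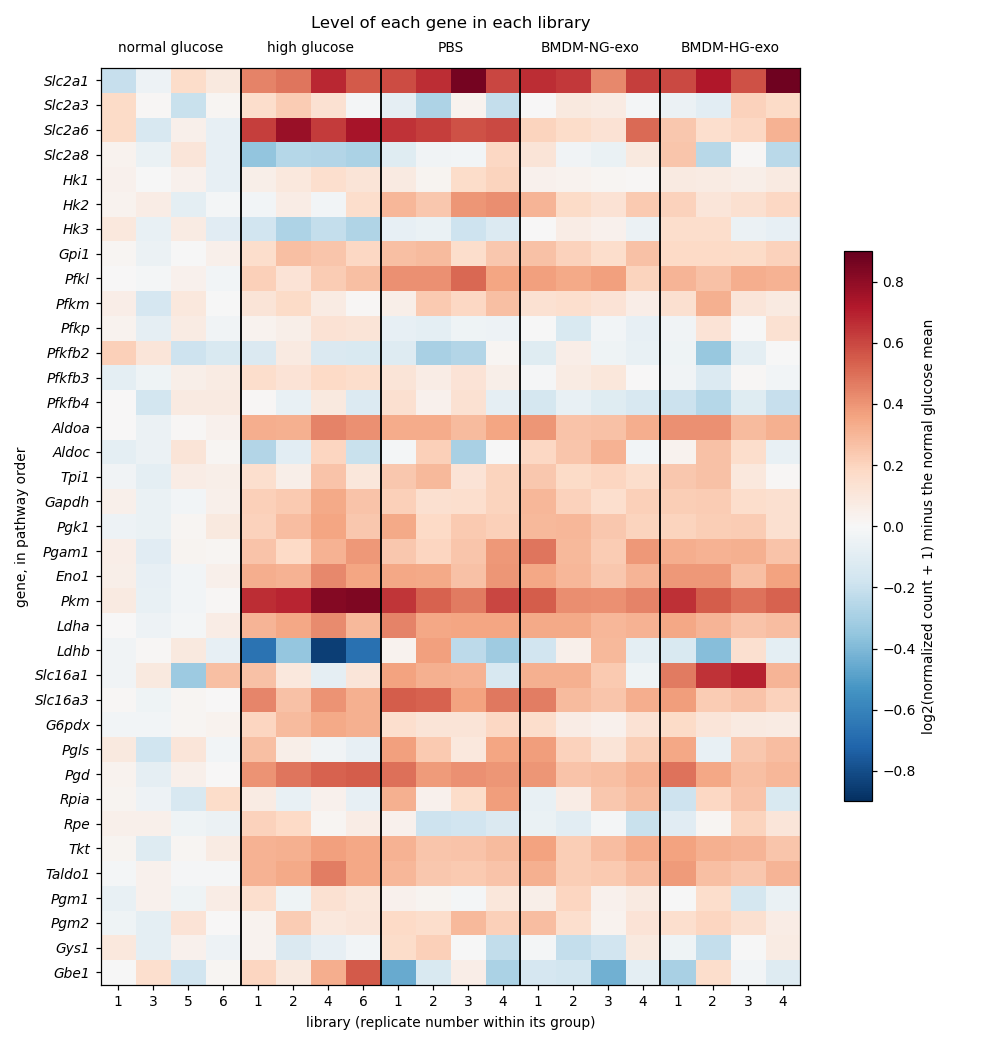
Heat map of the 37 genes (rows, in pathway order) in the 20 libraries (columns, by group and replicate number), coloured by log2(normalized count + 1) minus the mean of the 4 normal glucose libraries. Pkm and Slc2a1 are red in all 16 libraries outside normal glucose, and Ldhb is blue in all 4 high glucose libraries.

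The first question was how 24 h in high glucose changed these genes. Of the 37 genes, 20 (54.1%) passed an adjusted p under 0.05 in limma, against 13.3% of the 14425 genes tested. Because the members were chosen with earlier results of these data known, the contrast with all genes is a description. Of the 20 genes, 18 rose and 2 fell, where 7.74% of all genes rose and 5.53% fell. Genes rose at each step from glucose entry to lactate export except hexokinase and triose phosphate isomerase, and in both arms of the pentose phosphate pathway. The fallers were Ldhb and Hk3. The median log2 fold change of the 37 genes was 0.14, against -0.0031 over all genes tested. For 18 genes all 4 high glucose libraries lay above all 4 normal glucose libraries and for 3 they lay below (9.18% and 7.11% of all genes).

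The 10 macrophage markers were also higher, as a sum, in high glucose. Most of this sum was Lyz2, with a median of 570203 normalized counts over the 20 libraries, and Csf1r came next with 103572. The markers summed to 651404 to 726450 normalized counts in normal glucose and 828124 to 898093 in high glucose. No direction is given here for single markers, and the part of the markers in the result was not tested. The listed neutrophil markers summed to 254 to 378 in normal glucose and 211 to 258 in high glucose, while the sum of the listed stromal markers was 122 to 207 and 152 to 297, respectively. By level, of the 25 members averaging 1000 or more normalized counts 17 rose and 1 fell, where 16.2% and 7.18% of all genes of that level did, while of the 12 below it 1 rose and 1 fell. Over all 14425 genes tested 1116 rose and 798 fell. Of these, 893 and 395 were among the 5504 genes at or above that level, and the rest were below it. The median SE of the log2 fold change was 0.046 in the 25 members and 0.098 in the 12.

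The transporter genes grouped here as glucose entry were split by gene. Their counts give neither the place of a transporter in the cell nor glucose uptake. Slc2a1, the basal glucose transporter GLUT1, had 787, 883, 1020.4 and 968 normalized counts in the 4 normal glucose libraries and 1241, 1272, 1458 and 1337 in the 4 high glucose libraries. All high glucose libraries were above all normal glucose libraries (log2 fold change 0.54 ± 0.075 (SE), adjusted p = 1.66e-06). Slc2a6, the GLUT6 gene of myeloid cells, had 1695, 1358, 1546 and 1427 normalized counts in normal glucose. In high glucose it had 2309, 2573, 2327 and 2515. This was a 1.62-fold rise with no overlap (log2 fold change 0.69 ± 0.061 (SE), adjusted p = 1.45e-10). Slc2a8, an intracellular transporter, went from 462, 434, 488 and 429.8 to 354, 379, 377 and 372 normalized counts. The groups did not overlap and high glucose was the lower one, yet the gene missed the threshold (log2 fold change -0.29 ± 0.10 (SE), adjusted p = 0.0535). Slc2a3, the high-affinity transporter GLUT3, had 492, 438, 379.9 and 441 normalized counts in normal glucose, against 487, 510.5, 480.1 and 429.8 in high glucose, with overlap (log2 fold change 0.13 ± 0.10 (SE), adjusted p = 0.476). Of the summed level per kb of these 4 transporter genes, Slc2a8 held 15.2% ± 0.457 (SD, n = 4) in normal glucose and 8.77% ± 0.0979 (SD, n = 4) in high glucose, and Slc2a6 went from 50.3% ± 2.99 (SD, n = 4) to 57.5% ± 1.97 (SD, n = 4).

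No hexokinase gene rose. Hk3, the isoform typical of myeloid cells, had 5652, 5038, 5568 and 4924 normalized counts in normal glucose, against 4686, 4364, 4547 and 4377 in high glucose. It was lower in all 4 high glucose libraries (log2 fold change -0.23 ± 0.046 (SE), adjusted p = 0.000331), a call that limma without its variance trend did not make (adjusted p = 0.0754). Hk1, the housekeeping isoform, had 4549.8, 4416, 4549.7 and 4206 normalized counts in normal glucose, against 4594, 4738, 4926 and 4797 in high glucose. Its groups were separate, with high glucose above, but the gene was not called (log2 fold change 0.10 ± 0.042 (SE), adjusted p = 0.101). Hk2, the inducible isoform, had 2293, 2356, 2115 and 2218 normalized counts in normal glucose, against 2205, 2345, 2211 and 2504 in high glucose, with overlap (log2 fold change 0.044 ± 0.054 (SE), adjusted p = 0.663). Hk3 made up 61.6% ± 1.45 (SD, n = 4) of the hexokinase level per kb in normal glucose and 56.3% ± 1.56 (SD, n = 4) in high glucose, and remained the leading isoform.

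At the next steps the rises were small. Gpi1, which turns glucose 6-phosphate into fructose 6-phosphate, rose (log2 fold change 0.22 ± 0.036 (SE), adjusted p = 3.63e-05). Pfkl, the liver-type phosphofructokinase, had 1701, 1681, 1743 and 1675 normalized counts in normal glucose, against 1975, 1848, 1996 and 2055 in high glucose. It rose without overlap (log2 fold change 0.21 ± 0.054 (SE), adjusted p = 0.00661). Pfkm, the muscle type, had 763, 660.4, 785 and 733 normalized counts in normal glucose, against 793, 826, 772 and 739.97 in high glucose, which overlapped (log2 fold change 0.092 ± 0.079 (SE), adjusted p = 0.508). Pfkp, the platelet type, had 3374, 3123, 3477 and 3233 in normal glucose, against 3367, 3414, 3612 and 3579 in high glucose, which overlapped as well (log2 fold change 0.082 ± 0.047 (SE), adjusted p = 0.279). The 3 phosphofructokinase genes were close in level per kb, at 35.3% ± 1.08 (SD, n = 4) for Pfkl, 30.5% ± 1.03 (SD, n = 4) for Pfkm and 34.2% ± 0.187 (SD, n = 4) for Pfkp of their sum in normal glucose. Among the Pfkfb genes, which make and remove the activator fructose 2,6-bisphosphate, Pfkfb3 rose (log2 fold change 0.16 ± 0.053 (SE), adjusted p = 0.0442). This call was lost without any 1 of 6 of the 8 libraries, namely normal glucose replicates 1 and 3 and all 4 of high glucose. It was also lost in edgeR, with quantile normalization, without the variance trend, with the replicate block and at an adjusted p under 0.01. The log2 fold change stayed between 0.12 and 0.18 over all alternatives. Pfkfb4 (log2 fold change -0.023 ± 0.063 (SE), adjusted p = 0.865) and Pfkfb2 (log2 fold change -0.078 ± 0.11 (SE), adjusted p = 0.722) did not pass.

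Lower glycolysis, from aldolase to pyruvate kinase, rose at all of its steps but triose phosphate isomerase. Aldoa had 21072, 20275, 21145 and 21636 normalized counts in normal glucose, against 26324, 26184, 28628 and 27904 in high glucose. Every high glucose library was higher (log2 fold change 0.37 ± 0.035 (SE), adjusted p = 4e-10). Aldoc, the minor aldolase with 2.72% ± 0.15 (SD, n = 4) of the aldolase level per kb in normal glucose, was not called (log2 fold change -0.092 ± 0.093 (SE), adjusted p = 0.583). Gapdh, Pgk1 and Pgam1, which carry the sugar phosphate from glyceraldehyde 3-phosphate to 2-phosphoglycerate, rose by log2 fold changes of 0.26, 0.27 and 0.28, each without overlap (limma adjusted p = 2.14e-06, 4.33e-05 and 0.000209). Tpi1, triose phosphate isomerase, had 2769 ± 141 (SD, n = 4) normalized counts in normal glucose and 3053 ± 183 (SD, n = 4) in high glucose (log2 fold change 0.14 ± 0.051 (SE), adjusted p = 0.0629). Eno1, enolase, had 10955, 10023, 10399 and 10884 normalized counts in normal glucose, against 13224, 13129, 14216 and 13529.5 in high glucose, again separate (log2 fold change 0.36 ± 0.037 (SE), adjusted p = 5.92e-09).

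Pkm showed the largest change of the 37 genes. Pkm (chr9:59656368-59679375, GRCm38), which makes pyruvate and ATP, had 32108, 29072, 29828 and 30654 normalized counts in normal glucose, against 48274, 48969, 53973 and 54298 in high glucose. The groups were far apart, and the rise was 1.69-fold (log2 fold change 0.76 ± 0.038 (SE), adjusted p = 3.22e-17). The gene count does not separate the splice forms of Pkm. A gene model on the same strand within Pkm, Gm49759, was listed with 887 to 1568 normalized counts, and reads shared by both cannot be assigned. More widely, 10 of the 37 genes had stretches of at least 100 bases with at least 95% identity in transcripts of other genes, among them Gapdh in 79 genes, of which 77 were pseudogenes. How the counting treated such reads is not given in the sources used here, so these counts are uncertain to that extent, although listed copies other than Gm49759 and Mrpl27 stayed at or below 143 normalized counts.

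The lactate dehydrogenase genes went in opposite directions. Ldha, which favours lactate formation, had 6945, 6707, 6828 and 7243 normalized counts in normal glucose, against 8546, 8800.2, 9316 and 8496 in high glucose. All 4 high glucose libraries were higher (log2 fold change 0.34 ± 0.039 (SE), adjusted p = 3.99e-08). Ldhb, the isoform that favours lactate oxidation, had 239.5, 246, 261 and 233 normalized counts in normal glucose, against 154, 192, 135 and 153 in high glucose. Its groups were separate with high glucose below (log2 fold change -0.63 ± 0.15 (SE), adjusted p = 0.00303). The share of Ldhb in the lactate dehydrogenase level per kb was 6.94% ± 0.481 (SD, n = 4) in normal glucose and 3.67% ± 0.579 (SD, n = 4) in high glucose. Slc16a3, the lactate exporter MCT4, had 1033, 997, 1039.9 and 1029.6 normalized counts in normal glucose, against 1392, 1232, 1358 and 1279 in high glucose. It rose without overlap (log2 fold change 0.36 ± 0.064 (SE), adjusted p = 0.000114), while Slc16a1, the carrier MCT1, had 153 ± 25.9 (SD, n = 4) and 163 ± 16 (SD, n = 4) normalized counts (log2 fold change 0.097 ± 0.17 (SE), adjusted p = 0.779).

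**Figure D2:**
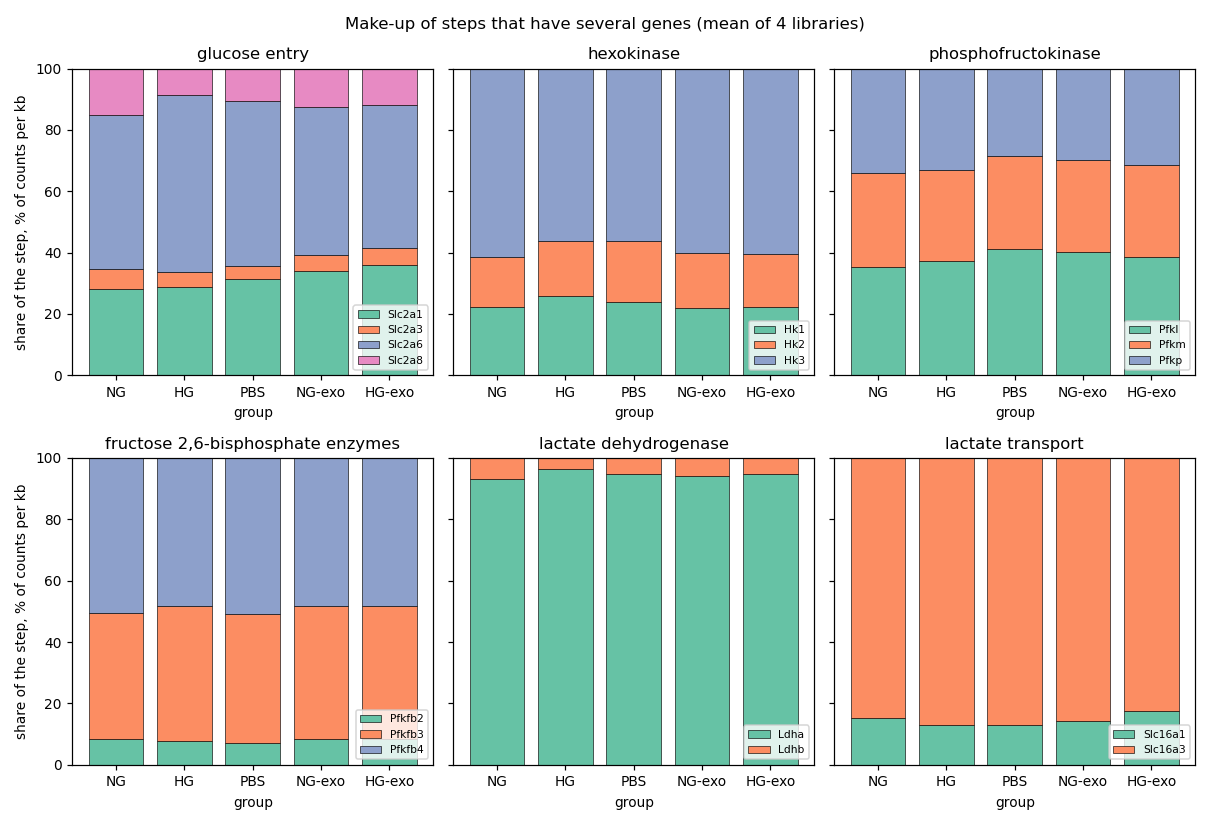
Stacked bars of the share of each gene in the summed normalized counts per kb of its step (mean of 4 libraries per group; NG, normal glucose; HG, high glucose; NG-exo and HG-exo, BMDM-NG-exo and BMDM-HG-exo). The shares of Slc2a8, Hk3 and Ldhb are lower in high glucose than in normal glucose.

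Both arms of the pentose phosphate pathway rose at their main enzymes. In the oxidative arm Pgd, 6-phosphogluconate dehydrogenase, had 13378, 12401, 13519 and 13132 normalized counts in normal glucose, against 17300.00, 18299, 18942 and 19104 in high glucose. Every high glucose library was above (log2 fold change 0.49 ± 0.037 (SE), adjusted p = 2.5e-12). G6pdx, the first and rate-limiting dehydrogenase, rose (log2 fold change 0.29 ± 0.037 (SE), adjusted p = 5.93e-07), and Pgls, the lactonase between both, had 1243 ± 112 (SD, n = 4) and 1293 ± 144 (SD, n = 4) normalized counts (log2 fold change 0.056 ± 0.073 (SE), adjusted p = 0.692). In the non-oxidative arm Taldo1 had 11475, 11923, 11545 and 11553 normalized counts in normal glucose, against 14436, 14715, 15959 and 14829.9 in high glucose, and rose without overlap (log2 fold change 0.37 ± 0.036 (SE), adjusted p = 1.38e-09). Tkt, transketolase, rose by a log2 fold change of 0.34 (limma adjusted p = 3.21e-08). The pentose isomerase gene Rpia and the epimerase gene Rpe did not pass, with log2 fold changes of -0.0082 (95% interval -0.24 to 0.22) and 0.12 (-0.023 to 0.26).

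Of the glycogen synthesis genes Gbe1, the branching enzyme, was called higher with overlapping groups, at 599 ± 55 (SD, n = 4) normalized counts in normal glucose and 736 ± 105 (SD, n = 4) in high glucose (log2 fold change 0.29 ± 0.094 (SE), adjusted p = 0.0339). The call was lost without normal glucose replicate 5 or 6 or high glucose replicate 4 or 6. It was also lost without the variance trend, with the replicate block, with all 20 libraries in 1 fit and at an adjusted p under 0.01. Pgm1, Pgm2 and Gys1, that is the phosphoglucomutases and glycogen synthase, had log2 fold changes of 0.086, 0.12 and -0.05 and were not called (limma adjusted p = 0.495, 0.231 and 0.74).

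A wider list of 87 other genes of sugar metabolism was examined beside the members, of which 59 were listed. Of these, 4 rose and 11 fell in high glucose, where 7.74% and 5.53% of all genes did. Together 25.4% of the 59 were called, against 13.3% of all genes, and their median log2 fold change was -0.040. The fallers included Slc37a1 and Slc37a2, sugar phosphate exchangers of the endoplasmic reticulum, and the monocarboxylate transporters Slc16a6 and Slc16a7. Slc16a6 had 1414, 1421, 1432 and 1592 normalized counts in normal glucose, against 1039, 1081, 1177 and 1209 in high glucose, in ascending order (log2 fold change -0.38 ± 0.066 (SE), adjusted p = 6.15e-05). Slc37a1 fell as well (log2 fold change -0.38 ± 0.12 (SE), adjusted p = 0.0336). In the pyruvate dehydrogenase complex and its regulators, Pdha1, a catalytic subunit, and Pdp1, the activating phosphatase, fell, with log2 fold changes of -0.16 and -0.21 (limma adjusted p = 0.045 and 0.0312). In glycogen metabolism 4 of 13 genes fell and 0 rose, where 5.53% and 7.74% of all genes did. The 4 were Gyg, the glycogenin primer, the phosphorylase kinase subunits Phka2 and Phkb, and Stbd1, which had the largest change of these (log2 fold change -0.67 ± 0.23 (SE), adjusted p = 0.0452). The risers were Adpgk, an ADP-dependent glucokinase (log2 fold change 0.24 ± 0.08 (SE), adjusted p = 0.0404), H6pd, the pentose phosphate dehydrogenase of the endoplasmic reticulum (log2 fold change 0.22 ± 0.048 (SE), adjusted p = 0.00131), and the aldose reductase family genes Akr1b3 and Akr1b8. The rise was larger for Akr1b8 (log2 fold change 0.45 ± 0.056 (SE), adjusted p = 2.62e-07). Gpd1, glycerol 3-phosphate dehydrogenase, was low, with 23.5, 30.2, 34.4 and 53.8 normalized counts in normal glucose, against 1.06, 5.44, 19.2 and 20.6 in high glucose, and fell (log2 fold change -2.001 ± 0.57 (SE), adjusted p = 0.0141).

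The second question was how exosomes of high glucose BMDM changed these genes in naive BMDM. Set against the 8 PBS and BMDM-NG-exo libraries together, the BMDM-HG-exo libraries showed 0 calls among the 37 genes at an adjusted p under 0.05 in limma with a log2 fold change beyond 0.15 in either direction, where 0.201% of the 14413 genes tested were called. In all, 8 of the 37 genes had an unadjusted p under 0.05, where 10.5% of all genes did, and the smallest adjusted p was 0.28, for Pfkp. The count was also 0 with the quasi-likelihood test of edgeR and with DESeq2 on the recovered reads. The median log2 fold change was -0.014 for the 37 genes and 0.00031 for all genes. The largest value was that of Slc16a1, a low gene with 210.3, 238, 245 and 188 normalized counts with BMDM-HG-exo, 195, 189, 188 and 137 with PBS and 189.7, 189.6, 178 and 148 with BMDM-NG-exo. One BMDM-HG-exo library lay within the range of the controls (log2 fold change 0.32 ± 0.14 (SE), adjusted p = 0.397).

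Compared directly, BMDM-HG-exo and BMDM-NG-exo differed at 0 of the 37 genes in limma, edgeR and DESeq2 (0.0139% of all genes called in limma). Only Pfkp and Pkm had an unadjusted p under 0.05, where 6.54% of all genes did. Hk1 was not called, although its BMDM-HG-exo libraries (4589 to 4692 normalized counts) all lay above its BMDM-NG-exo libraries (4459 to 4541). Pkm had 44420.1, 40552, 40505 and 41429 normalized counts with BMDM-NG-exo and 48041, 44398, 42588 and 43831 with BMDM-HG-exo, which overlapped (log2 fold change 0.099 ± 0.037 (SE), adjusted p = 0.621, 95% interval 0.024 to 0.17). For Slc2a1 the 95% interval of the log2 fold change was -0.044 to 0.25, for Pgd -0.038 to 0.12 and for Ldha -0.099 to 0.047. The widest interval was that of Slc16a1, at -0.011 to 0.65.

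**Figure D3:**
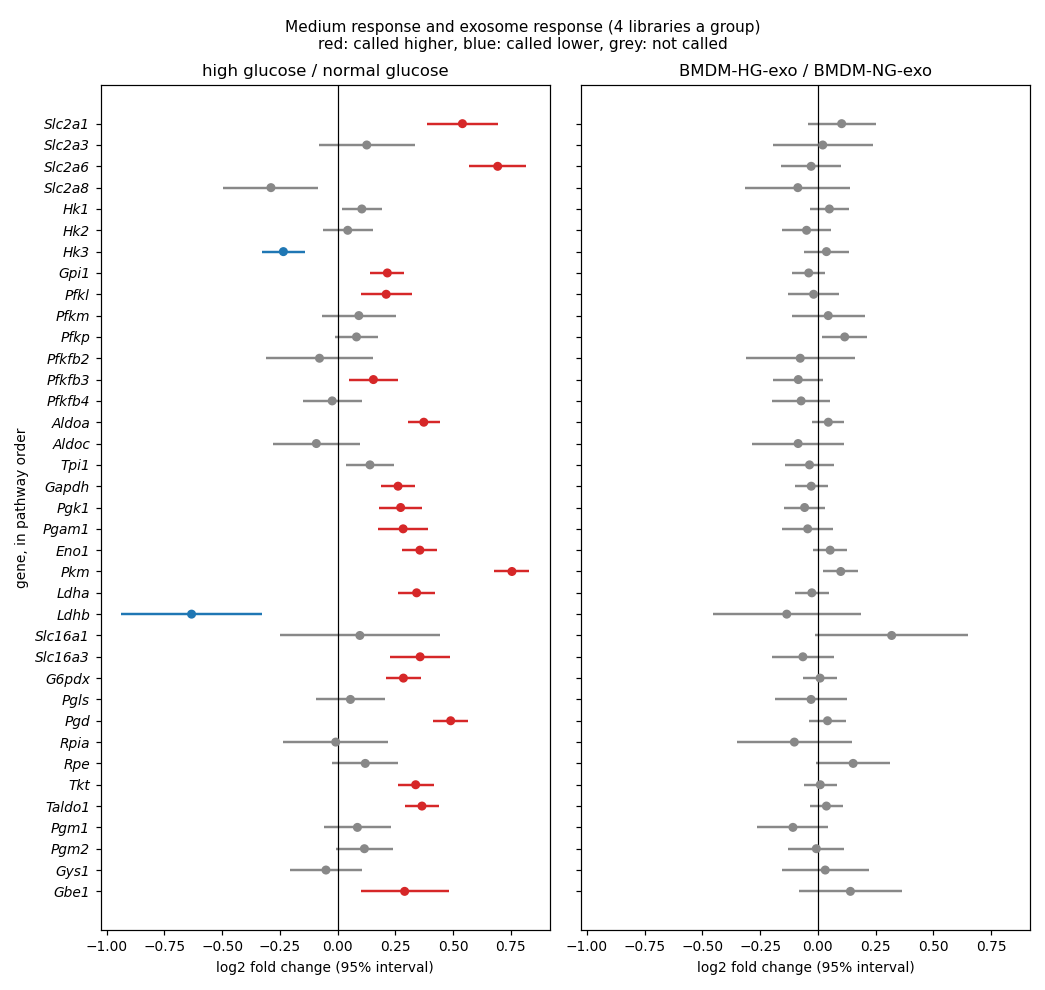
Log2 fold change with its 95% interval for each of the 37 genes (rows, in pathway order), for high glucose against normal glucose (left) and BMDM-HG-exo against BMDM-NG-exo (right), 4 libraries per group. On the left 18 genes are red (higher) and 2 blue (lower), and on the right all are grey (not called).

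Both exosome groups were also set against PBS, and these comparisons share the 4 PBS libraries. BMDM-NG-exo against PBS gave 1 call, a fall of Slc2a6, where 3% of all genes were called and 2.11% fell. Slc2a6 had 2354, 2313, 2236 and 2268 normalized counts with PBS, 1723, 1684, 1639 and 2137 with BMDM-NG-exo and 1774, 1664, 1708 and 1861 with BMDM-HG-exo. These values follow replicates 1 to 4, whose label dates are 01-08-20, 12-11-19, 12-18-19 and 01-15-20. All 8 exosome libraries lay below all PBS libraries. Without the variance trend of limma the call for BMDM-NG-exo was lost (adjusted p = 0.0841). With the groups separate, the fall was necessarily seen on 4 of 4 dates in each exosome group (log2 fold change -0.36 ± 0.065 (SE), adjusted p = 0.000392 for BMDM-NG-exo, and log2 fold change -0.39 ± 0.065 (SE), adjusted p = 7.01e-05 for BMDM-HG-exo).

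BMDM-HG-exo against PBS gave 5 calls, or 13.5% of the 37 genes against 4.84% of all genes, 4 lower (3.08%) and 1 higher (1.76%). Beside Slc2a6, Pfkfb4, Slc16a3 and Hk2 fell, and Hk3 rose. Pfkfb4, a fructose 2,6-bisphosphate enzyme, had 1760.3, 1632, 1751 and 1508 normalized counts with PBS and 1392, 1335, 1473 and 1379 with BMDM-HG-exo, which were separate (log2 fold change -0.25 ± 0.062 (SE), adjusted p = 0.00787). With BMDM-NG-exo it had 1425, 1518, 1477 and 1443 (log2 fold change -0.18 ± 0.062 (SE), adjusted p = 0.122). Hk2 had 2763, 2659.9, 2950.4 and 2994 normalized counts with PBS and 2587, 2421, 2485 and 2554 with BMDM-HG-exo, all lower (log2 fold change -0.18 ± 0.052 (SE), adjusted p = 0.0347). Its values with BMDM-NG-exo were 2779, 2531, 2456 and 2636 and overlapped with those of PBS. Hk3, the myeloid hexokinase, had 5018, 5065, 4634 and 4863 normalized counts with PBS, 5295, 5530.2, 5439.9 and 5085 with BMDM-NG-exo and 5912, 5911, 5107 and 5033 with BMDM-HG-exo. The BMDM-HG-exo libraries fell into a higher and a lower pair, and the lowest library lay within the PBS range (log2 fold change 0.16 ± 0.049 (SE), adjusted p = 0.0411). All BMDM-NG-exo libraries lay above all PBS libraries for Hk3, although the gene was not called there. Slc16a3 had 1498, 1482, 1320.1 and 1426 normalized counts with PBS and 1332, 1198, 1222 and 1183 with BMDM-HG-exo, where only the highest of the latter reached into the PBS range (log2 fold change -0.21 ± 0.066 (SE), adjusted p = 0.0498). With BMDM-NG-exo Slc16a3 was also lower on average, at 1291 (1217 to 1413) against 1432 with PBS, but was not called. Each of the 5 genes moved the same way on 4 of 4 dates, which for Slc2a6, Pfkfb4 and Hk2 follows from the separate groups. The median log2 fold change of the 37 genes was -0.043 (all genes 0.0034). With 1 library left out the count fell to 2 without PBS replicate 4 or BMDM-HG-exo replicate 2 and to 3 without PBS replicate 1 or 3 or BMDM-HG-exo replicate 3 or 4, and Slc2a6 and Pfkfb4 were called in all of these fits. Hk3 was not called without PBS replicate 1, 3 or 4 or BMDM-HG-exo replicate 1 or 2. Hk2 was not called without PBS replicate 3 or 4 or BMDM-HG-exo replicate 2, 3 or 4. Slc16a3 was not called without PBS replicate 1, 2 or 4, BMDM-NG-exo replicate 2 or 4, or BMDM-HG-exo replicate 2, 3 or 4. Its call was also lost in edgeR, with a pseudocount of 0.5 and with quantile normalization, and that of Hk2 with quantile normalization. Without the variance trend of limma only Slc2a6 remained called. The summed normalized counts of the 10 macrophage markers were 816258 to 861726 with PBS, 738507 to 794497 with BMDM-NG-exo and 755323 to 778999 with BMDM-HG-exo, and their part in these results was not tested. These sums were mostly Lyz2 as well, and no direction is given here for single markers.

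**Figure D4:**
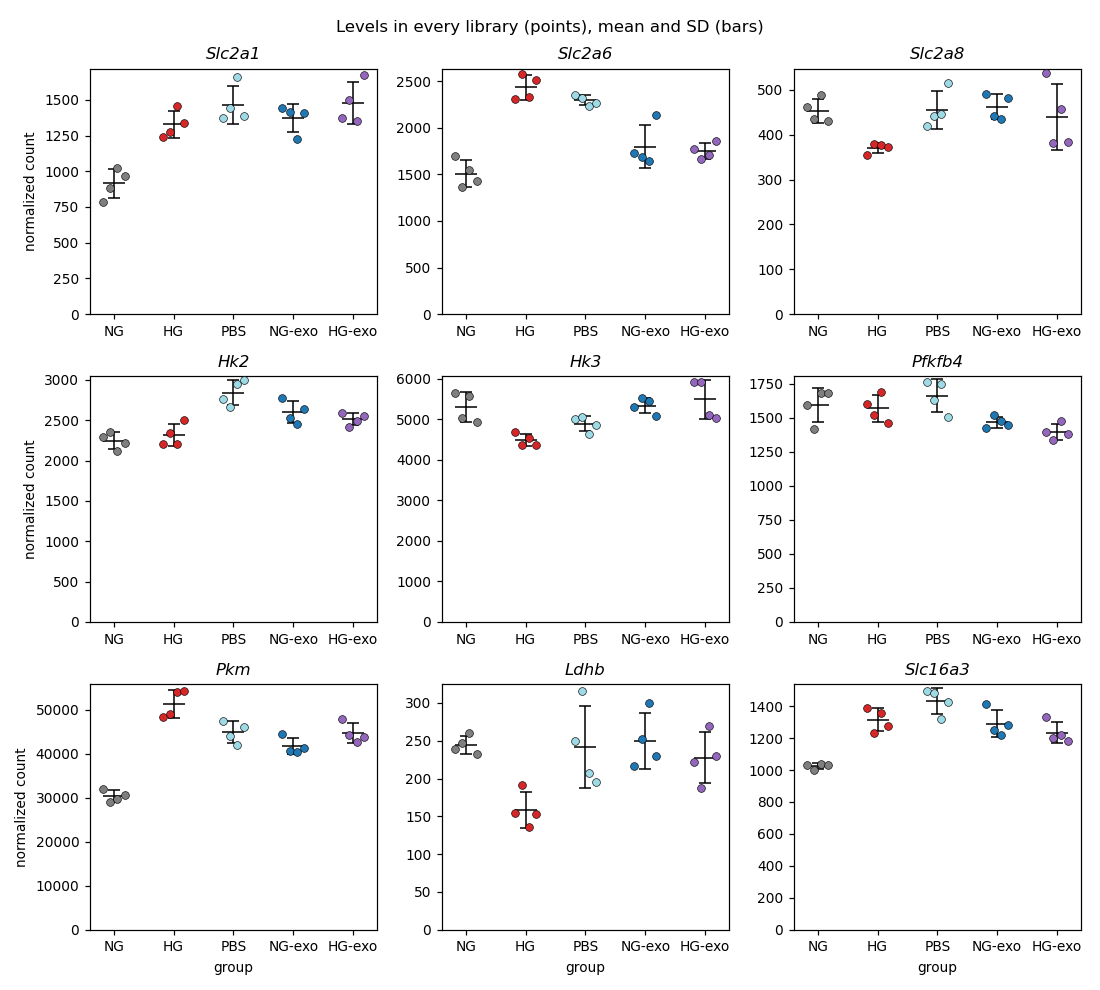
Normalized counts of 9 genes in every library (points), with the mean and SD of each group (bars). Each vertical axis starts at 0 (NG, normal glucose; HG, high glucose; NG-exo and HG-exo, BMDM-NG-exo and BMDM-HG-exo). Slc2a6 is high with high glucose and PBS and lower in the other 3 groups, and Ldhb is lowest in high glucose.

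Phosphofructokinase genes were not called against PBS. Pfkl had 2266, 2258, 2436 and 2173 normalized counts with PBS and 2103, 2041, 2135 and 2108 with BMDM-HG-exo, all lower (log2 fold change -0.12 ± 0.054 (SE), adjusted p = 0.229). Pfkp had 3129, 3105, 3215 and 3194 with PBS and 3223, 3591, 3293 and 3627 with BMDM-HG-exo, all higher (log2 fold change 0.12 ± 0.048 (SE), adjusted p = 0.184). Pfkm had 759.9, 865, 835 and 887 with PBS and 811, 914, 793 and 777 with BMDM-HG-exo, with overlap (log2 fold change -0.023 ± 0.078 (SE), adjusted p = 0.924). The remaining entry genes were not called either. Slc2a1 had 1370.3, 1440.2, 1657 and 1384 normalized counts with PBS, 1441, 1413, 1226 and 1405 with BMDM-NG-exo and 1376, 1501, 1352 and 1674 with BMDM-HG-exo. These 3 groups overlapped. Slc2a3 lay at 360.05 to 504 and Slc2a8 at 381 to 538 normalized counts over the 12 libraries, and Hk1 at 4459 to 5096. Among the 59 other genes of sugar metabolism, 0 were called for BMDM-HG-exo against both controls or against BMDM-NG-exo in limma (0.201% and 0.0139% of all genes). An unadjusted p under 0.05 was seen for 6 and 4 of them (10.5% and 6.54% of all genes). With PBS as reference, 1.69% of the 59 were called for BMDM-NG-exo and 5.08% for BMDM-HG-exo (3% and 4.84% of all genes). Against PBS, Gyg rose with BMDM-NG-exo (log2 fold change 0.19 ± 0.048 (SE), adjusted p = 0.0203), and Gyg, Pgm2l1, a glucose 1,6-bisphosphate synthase, and Pdp1 rose with BMDM-HG-exo (log2 fold changes of 0.16, 0.24 and 0.25, limma adjusted p = 0.0404, 0.0327 and 0.0261).

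Whether the medium response differed from the exosome response was tested as 1 contrast over the 20 libraries, high minus normal glucose less BMDM-HG-exo minus BMDM-NG-exo. Of the 37 genes 17 (45.9%) passed, against 4.74% of all genes, 16 with a higher medium response (3.27%) and Hk3 with a lower one (1.47%). This contrast with all genes is a description too, given how the members were chosen. The difference was largest for Slc2a6 (log2 difference 0.72 ± 0.094 (SE), limma adjusted p = 7.79e-07) and Pkm (0.66 ± 0.057 (SE), limma adjusted p = 8.4e-11). Pgd followed with 0.45 and Slc2a1 with 0.44 (limma adjusted p = 5.28e-07 and 0.0105). Ldhb and Pfkl, both called in high glucose, did not pass here, at -0.50 (95% interval -0.94 to -0.058) and 0.23 (0.081 to 0.38). Slc2a1, Hk3, Gpi1, Pfkfb3 and Pgam1 did not pass with the replicate block, which left 12 genes, nor Slc2a1, Hk3 and Pgam1 without the variance trend of limma (largest adjusted p for Slc2a1 0.0894). Hk3 was lost without BMDM-HG-exo replicate 2, at a log2 difference of no less than -0.32 and no more than -0.24 over all alternatives. Pfkfb3 was lost without any 1 of 8 libraries, namely normal glucose replicates 1 and 3, high glucose replicates 1, 4 and 6, BMDM-NG-exo replicates 2 and 3 and BMDM-HG-exo replicate 2. Of the 59 other genes 5 passed (8.47%, against 4.74% of all genes). The medium response was lower for Slc16a6, Slc16a7 and Gyg and higher for H6pd and Pcx, pyruvate carboxylase.

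The levels of the exosome experiment were also set beside those of the glucose experiment. All 4 PBS libraries were above all 4 normal glucose libraries for 19 of the 37 genes, against 10.4% of all genes, and below them for 0 (8.61%). The median log2 difference between PBS and normal glucose was 0.21 for the 37 genes and -0.0058 for all genes. Between PBS and high glucose it was 0.012, with 4 genes above and 6 below without overlap (7.53% and 6.89% of all genes). The corresponding counts above normal glucose were 18 for BMDM-NG-exo (8.8% of all genes) and 18 for BMDM-HG-exo (9.07%), with 0 below for both (7.32% and 7.37%). For Pkm the mean was 30416 ± 1300.01 (SD, n = 4) normalized counts in normal glucose, 44927 ± 2479 (SD, n = 4) with PBS and 51379 ± 3199 (SD, n = 4) in high glucose. For Hk2 the order differed, with PBS highest at 2842 ± 157 (SD, n = 4), high glucose at 2316 ± 141 (SD, n = 4) and normal glucose at 2246 ± 103 (SD, n = 4). The experiment and the medium cannot be told apart in these values, which are a description.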

How the data were processed

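Total RNA of 20 BMDM cultures was sequenced. The authors trimmed reads with cutadapt, mapped them to GRCm38 with STAR 2.5.3a, counted them per gene with FeatureCounts 2.0.1 and divided each library by its DESeq2 size factor. The values are a deposited signal, that is counts after scaling by that factor, and whole reads were recovered from it (100% of values, within 1% of a step). In 2 columns the step is within 1% of 1. The median over the libraries of a listed gene was at least 11 reads, and rarer genes are not part of these results. Names, positions and exon lengths came from GENCODE M21 (14421 of 14456 genes). The annotation used for counting is not given in the sources used here. Promoter sequences are from RefSeq.

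Log2(normalized count + 1) was fitted with limma 3.58.1 in R 4.3.3 (lmFit, eBayes with trend), two-sided, over genes averaging 10 or more, with Benjamini-Hochberg adjustment over all of them in each of 6 comparisons. Fold changes on this scale understate those of low genes. Groups came from the sample labels. The glucose libraries, the exosome libraries and all 20 for the difference of responses each had a fit. Calls needed an adjusted p-value under 0.05 and, between exosome groups, a log2 fold change of 0.15 or more in size. Members and lists were chosen with earlier results of these data known. By rule the called members were named, and the 10 with the largest change and the entry, hexokinase and phosphofructokinase genes were given per library. Alternatives used edgeR 4.0.16, DESeq2 1.42.0, other pseudocounts, filters, scalings and thresholds, a replicate block, and each library left out. The exosome labels carry 4 dates shared by the 3 groups, which pair the libraries. Deviations of libraries of the same date correlated at 0.012 on average (12 pairs, -0.018 to 0.056), and those of different dates at -0.0040 (36 pairs). No 2 libraries were copies (chi-square per degree of freedom 5.19 to 41.9). The fits were tested on simulated data. Figures were drawn with matplotlib 3.10.9.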

Additional observations from a re-analysis of the deposited data

Results flagged for a closer look

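In 7 of 185 groups of 4 libraries (37 genes in 5 groups, 3.78%), the highest or lowest library was set apart from the other 3 by more than Dixon's critical share of the range. Chance flags about 1 in 20 groups. Slc2a1 was low in BMDM-NG-exo replicate 3, at 1226 normalized counts against 1405 to 1441 in the other 3 libraries. Slc2a6 was high in BMDM-NG-exo replicate 4, at 2137 normalized counts against 1639 to 1723 in the other 3 libraries. Gpi1 was high in BMDM-HG-exo replicate 4, at 13526 normalized counts against 13228 to 13278 in the other 3 libraries. Pfkl was low in BMDM-NG-exo replicate 4, at 1952 normalized counts against 2158 to 2197 in the other 3 libraries. Pfkfb2 was high in high glucose replicate 2, at 409 normalized counts against 351 to 353 in the other 3 libraries. Ldha was high in PBS replicate 1, at 9454 normalized counts against 8814 to 8856 in the other 3 libraries. Slc16a1 was low in PBS replicate 4, at 137 normalized counts against 188 to 195 in the other 3 libraries.

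The medium response and the exosome response differed for 17 genes by the test of the difference (limma, 20 libraries). As log2 differences, the medium response was higher for Slc2a6 (0.72), Pkm (0.66), Pgd (0.45), Slc2a1 (0.44), Slc16a3 (0.42), Ldha (0.37), Pgk1 (0.33), Taldo1 (0.33), Aldoa (0.33), Pgam1 (0.33), Tkt (0.33), Eno1 (0.30), Gapdh (0.29), G6pdx (0.28), Gpi1 (0.25) and Pfkfb3 (0.24), and lower for Hk3 (-0.27).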

How the results depend on the processing

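Under 11 alternatives, the count of genes called in high glucose was 16 to 21 (main 20), and with 1 library left out 18 to 20. Of the 20 genes 15 were called under every alternative and with every library left out. The difference between responses gave 12 to 18 genes under 10 alternatives and 15 to 18 with 1 library left out (main 17). BMDM-HG-exo against both controls and against BMDM-NG-exo gave 0 under all alternatives and left-out libraries. For BMDM-NG-exo against PBS the count went from 1 to 0 without the variance trend in limma, and with 1 library left out it was 1 to 2, the 2 without PBS replicate 4. For BMDM-HG-exo against PBS it went from 5 to 3 with quantile normalization, 1 without the variance trend and 2 at an adjusted p under 0.01, and with 1 library left out it was 2 to 5. The cause was not tested. No called gene changed direction. With the replicate block, the numbers of the glucose labels, of which the groups share only 2 (1 and 6), gave 16 genes in high glucose, and Gpi1, Pfkfb3, Ldhb and Gbe1 were not called. Deviations of the 2 same-numbered pairs correlated at 0.0071 on average and of 14 others at -0.0010. In the test of the difference between responses the block gave 12, and Slc2a1, Hk3, Gpi1, Pfkfb3 and Pgam1 were not called. With the label dates as the block, the exosome comparisons gave 0, 1, 5 and 0 genes, and no call changed. Low genes limit the precision: Slc16a1, with 105 reads in 1 normal glucose library, had an SE of 0.17 in the glucose fit.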
